A study of Mus musculus with 6 samples.

Results

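A set of 45 genes of the germline, of the piRNA pathway, of meiosis and of pluripotency was followed in RNA-seq libraries of mouse cultures labelled as female germline stem cells (FGSCs). The genes were listed by name from what they are known for. The rule used no measured value, although the list was drawn up with earlier results of these data known. The genes were found in the deposited expression table by Ensembl identifier. All 45 were found among its 55401 genes. Of the 45 genes, 28 (62.2%) were listed at 0 in all 6 libraries, 7 had a value above 0 but not above the detection floor defined below, and 10 (22.2%) were above it. The list also holds genes of spermatogonia, oocytes and meiosis, so the count over all 45 does not by itself decide the germ cell label. Of the 6 genes by which the study typed its cells, 1 was above the floor. The listed values of Ddx4, Dazl and Prdm1 thus did not bear out the label at the level of RNA-seq. Those of Pou5f1 and Dppa3 are uncertain because of copies elsewhere in the genome, as given below. The study read the panel by RT-PCR, and Ddx4 also as protein, so the measures are unlike. The cultures are called FGSCs here only because the labels do so.

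The libraries came from C57BL/6 cells at passages above 20, which the study's methods describe as a line and not as fresh isolates. In all 6 libraries the cells grew on STO feeders, a mouse embryonic fibroblast line whose division had been blocked, in serum medium with leukemia inhibitory factor, epidermal growth factor, basic fibroblast growth factor and glial cell line-derived neurotrophic factor (GDNF). The control group (n = 3) had no treatment, and the metformin group (n = 3) had 1 μM metformin, a biguanide used against type 2 diabetes, for 24 h. The labels do not say whether the 3 libraries of a group came from separate cultures, so the errors and p-values below measure the spread between libraries, which may be technical.

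Germ cells are set apart in the embryo by regulators such as Prdm1 and Prdm14 and keep pluripotency factors such as Pou5f1 active while they migrate. Ddx4 and Dazl, RNA-binding proteins that are switched on in the gonad, mark germ cells of both sexes. The piRNA pathway, built of PIWI proteins and Tudor-domain proteins, silences transposons in germ cells, and Stra8 opens meiosis, in which the synaptonemal complex joins homologous chromosomes. Undifferentiated spermatogonia receive GDNF through the co-receptor Gfra1 and the kinase Ret, and oocytes use Figla, Nobox and Sohlh1 to start their growth programme.

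The study typed its cultures by RT-PCR for 6 of the 45 genes and reported expression of all 6. It also reported that the cells stained for the Ddx4 protein by immunofluorescence. The RT-PCR primers are shown because they define which transcripts that test could read. They were placed on NCBIM37 (mm9) and its GENCODE transcripts. Capitals in the forward primer of Dazl mark its bases in exon 3.
Oct4 (Pou5f1) forward: ggaggaagccgacaacaa
Oct4 (Pou5f1) reverse: agcagtgacgggaacaga
Mvh (Ddx4) forward: ggaaaccagcagcaagtgat
Mvh (Ddx4) reverse: tggagtcctcatcctctgg
Stella (Dppa3) forward: cccaatgaaggaccctgaaac
Stella (Dppa3) reverse: aatggctcactgtcccgttca
Fragilis (Ifitm3) forward: atgtggtctggtccctgtt
Fragilis (Ifitm3) reverse: cggaagtcggaatcctcta
Dazl forward: aggATGGATGAAACCGAAAT
Dazl reverse: actgtggtggaggaggagg
Blimp1 (Prdm1) forward: cggaaagcaacccaaagcaatac
Blimp1 (Prdm1) reverse: cctcggaaccataggaaacattc

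The Oct4 primers lay in coding sequence of exons 3 and 5 of 5, at chr17:35646450-35646467 and chr17:35647452-35647469, on the plus strand gene. Genomic DNA would give 1020 bp with them, against 430 bp from the transcript. The Mvh primers lay in exons 9 and 13 of 22, at chr13:113415557-113415576 and chr13:113412465-113412483 of this minus strand gene. The Stella primers lay in exons 1 and 4 of 4, at chr6:122576567-122576587 and chr6:122579930-122579950. At the intended gene, transcript and genomic products thus differ in length for Oct4, Mvh and Stella. Genomic DNA of the gene gives 3112 bp for Mvh and 3384 bp for Stella. The Oct4 reverse and Stella forward primers each had 2 exact genome matches, 1 of them in the intended gene.

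The forward primer of Dazl crossed the junction of exons 2 and 3 of 11 and had 0 exact matches in the genome. Its reverse primer lay in exon 6, at chr17:50426936-50426954. The Blimp1 primers both lay in exon 6 of 8, at chr10:44161942-44161964 and chr10:44161482-44161504, so that their 483 bp product is the same on genomic DNA. The Fragilis primers lay in coding sequence of exon 1 of 2 and in the UTR of exon 2, at chr7:148196357-148196375 and chr7:148195605-148195623. The Fragilis forward primer matched transcripts of Ifitm1, Ifitm2 and Ifitm3, and the reverse primer had at least 8 mismatches of 19 bases to Ifitm1 and to Ifitm2. This forward primer had 9 exact genome matches, the most of any primer, 1 of them in the intended gene. Genomic DNA of the gene gives 771 bp with the Fragilis pair, against 264 bp from the transcript. With exact matches, 0 genomic products of up to 20000 bp lay outside the intended gene for any of the 6 pairs. For Dazl this follows from the 0 genome matches of its forward primer. Genome sites with mismatches were not searched, so the count does not show that the pairs are specific.

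Levels are fragments per kilobase of exon scaled to the depth of the library (FPKM). The unit corrects for gene length, so that genes can be compared with each other. Depth was read from the step that 1 fragment makes in short genes and came to 13410000 to 14030000 fragments per library, 83010000 in all. At this depth 3 fragments on 1 kb of exon were worth 0.214 to 0.224 FPKM. The detection floor of a gene was set at 3 fragments on its own exon length, and a gene was above it where its mean over the 6 libraries exceeded that level. For the 28 genes at 0, the floor lay between 0.0239 FPKM for Lin28b, the longest of them, and 0.297 FPKM for Nanos3. A count of 0 in a library allows up to that level, and this limit covers counting error only.

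Of 20753 protein-coding genes with a known exon length, 11160 (53.8%) were above their floor and 6166 (29.7%) were at 0 in all 6 libraries. The germline genes had the lower share above the floor and the higher share at 0. An estimated 3623 fragments fell on the 45 genes over the 6 libraries. Of these, 3306 (91.2%) fell on 5 genes, Tex14, Piwil4, Zbtb16, Piwil2 and Sycp1. The means of all 45 genes summed to 10.12 FPKM, or 0.00317% of the total FPKM of the table.

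**Figure D1:**
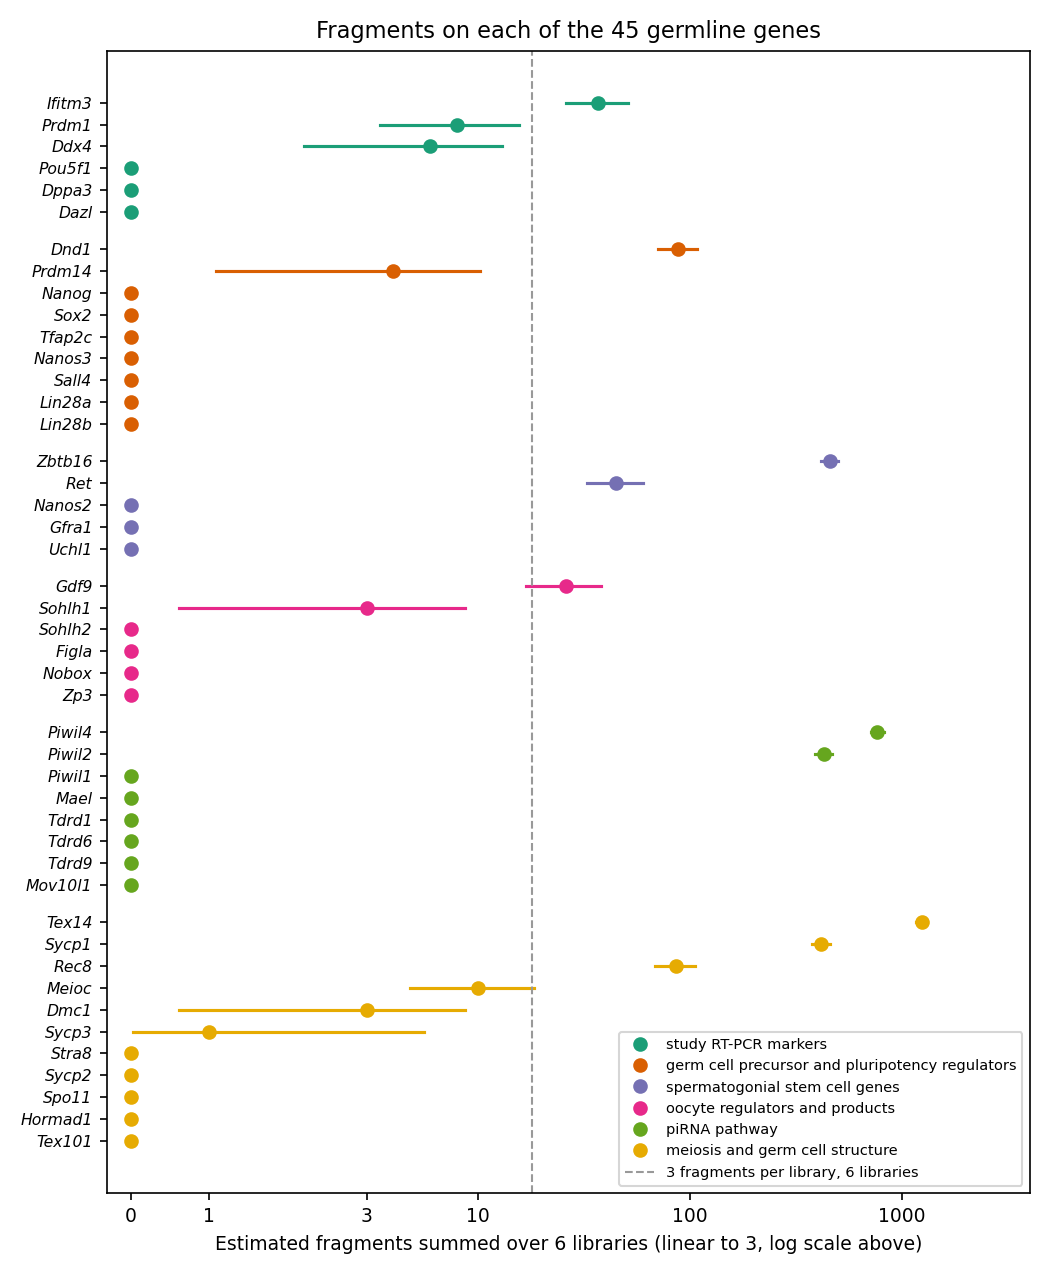
Estimated fragments on each of the 45 genes, summed over the 3 control and 3 metformin libraries (linear to 3, log scale above), coloured by role, with lines for exact Poisson 95% intervals drawn where a gene had at least 1 fragment. The dashed line at 18 fragments marks 3 per library, and 10 genes lie to the right of it while 28 sit at 0.

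Of the 6 genes of the RT-PCR panel, 1 was above the floor. Pou5f1, the central pluripotency factor, Dppa3, which protects imprints in the early embryo, and Dazl were listed at 0 in all 6 libraries. Ddx4, the helicase used as the standard germ cell marker, was listed at 0.05, 0.02 and 0.02 FPKM in the control libraries and at 0.05, 0 and 0 FPKM in the metformin libraries. This came to 6 fragments in 83010000 (exact Poisson 95% interval 2.20 to 13.1). Prdm1, a repressor that founds the germ cell fate and also acts in blood cells, was listed at 0.01, 0.03 and 0.01 FPKM in the controls and at 0.04, 0.01 and 0 FPKM with metformin, or 8 fragments (exact Poisson 95% interval 3.45 to 15.8). All 6 genes together held 51 fragments, 37 of them on Ifitm3. A near-identical copy elsewhere in the genome, at 97% identity or more over at least 75 bp, covered 98.1% of the Dppa3 transcript and 28.6% of the Pou5f1 transcript. How the authors counted reads that match several places is not given in the sources used here, so the values of these genes are uncertain. Such copies covered 0% of the transcripts of Ddx4, Ifitm3, Dazl and Prdm1.

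Ifitm3, a membrane protein induced by interferon that is also a marker of early germ cells, was listed at 1.32, 0.43 and 0.53 FPKM in the control libraries and at 0.84, 0.32 and 0.53 FPKM in the metformin libraries. The gene lies at chr7:141009586-141010770 on the minus strand of GRCm38, the build of the table's positions. Control 1 stood highest and metformin 2 lowest, level with the floor of 0.320 FPKM. These values stand for 3 to 12 fragments per library, and the coefficient of variation over the 6 libraries was 55.3%, against 40.3% from counting alone. The close relatives of Ifitm3 in the same gene cluster were far more abundant. Ifitm1 was listed between 482 and 528 FPKM, with a mean 757-fold that of Ifitm3, and Ifitm2 between 153 and 173 FPKM, 253-fold that of Ifitm3. Ifitm5, which acts in bone, averaged 0.842 FPKM, Ifitm6 averaged 0.158 FPKM, under its floor of 0.401 FPKM, and Ifitm7 was listed at 0. Of the 3 transcripts that carry the forward primer site of Fragilis, that of Ifitm3 was thus the least abundant.

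**Figure D2:**
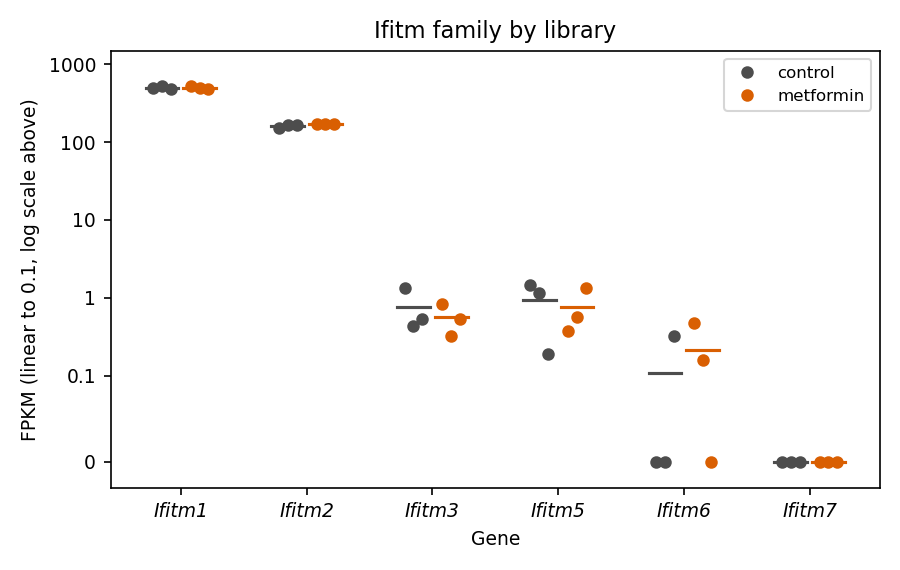
FPKM of 6 genes of the Ifitm family in each library (linear to 0.1, log scale above), with points for libraries and bars for the means of the control and metformin groups (n = 3 each). Ifitm1 and Ifitm2 lie above 150 FPKM in every library, and Ifitm3 between 0.32 and 1.32 FPKM.

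Among 9 regulators of germ cell precursors and pluripotency, 7 were at 0 in all 6 libraries. They were the pluripotency factors Nanog and Sox2, the precursor factor Tfap2c, the survival factor Nanos3, the zinc finger factor Sall4, and Lin28a and Lin28b, which block maturation of the let-7 microRNAs. Nanog carried near-identical copies over 71.8% of its transcript and Lin28a over 16.3%. Prdm14, a repressor that secures the precursor state, had an estimated 4 fragments, 1 in control 1 and 3 in metformin 3. Dnd1, which shields transcripts of germ cells from microRNAs, was above the floor. Its control libraries were listed at 0.31, 0.54 and 0.44 FPKM and its metformin libraries at 0.50, 0.53 and 0.30 FPKM, and the groups overlapped. Dnd1 overlaps Wdr55 on the opposite strand over 140 bp and lies 313 bp from Hars on its own strand, and these averaged 41.2 and 72.0 FPKM. Whether the authors counted by strand is not given in the sources used here, so reads of Dnd1 and Wdr55 cannot be told apart in the overlap.

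Of the 5 genes of spermatogonial stem cells, Zbtb16 and Ret were above the floor. Zbtb16, a transcriptional repressor that maintains these cells and is also used by blood cells, was listed at 1.17, 1.08 and 1.00 FPKM in the controls and at 0.90, 1.22 and 1.14 FPKM with metformin. It lies at chr9:48654297-48836222 on the minus strand. The metformin libraries held both its highest and its lowest value. Its coefficient of variation over the 6 libraries, 10.9%, was close to the 11.4% that counting alone gives. Ret was listed at 0.12, 0.01 and 0.05 FPKM in the controls and at 0.06, 0.11 and 0.10 FPKM with metformin, or 1 to 12 fragments per library. Control 1 was the highest and control 2 the lowest, under the floor of 0.0295 FPKM. Its co-receptor Gfra1 was listed at 0 in all 6 libraries, although GDNF was in the medium of every culture. Nanos2, which holds spermatogonia undifferentiated, and Uchl1, a ubiquitin hydrolase of spermatogonia and neurons, were also at 0.

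Among 6 regulators and products of oocytes, 4 were at 0 in all 6 libraries. They were the oocyte transcription factors Sohlh2, Figla and Nobox, and Zp3, a protein of the zona pellucida. Sohlh1 had 3 fragments in all, 1 each in control 1, control 3 and metformin 3. Gdf9, a growth factor that oocytes secrete, was listed at 0.22, 0.07 and 0 FPKM in the controls and at 0.25, 0.11 and 0.29 FPKM with metformin. These values stood for 6, 2 and 0 fragments in the controls and 7, 3 and 8 with metformin. Gdf9 lies 191 bp from Uqcrq, a respiratory chain gene on the opposite strand that averaged 61.0 FPKM. Of the 10 genes above the floor, Gdf9 had the fewest fragments over the 6 libraries, 26, and of the 7 low genes Meioc had the most, 10.

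Of the 8 listed genes of the piRNA pathway, the PIWI genes Piwil2 and Piwil4 were above the floor and the other 6 were at 0. Piwil4, which guides silencing in the nucleus, was listed at 1.58, 1.51 and 1.92 FPKM in the controls and at 1.89, 1.71 and 1.65 FPKM with metformin. Control 3 was the highest of the 6 libraries and control 2 the lowest. Piwil2, which cleaves transposon transcripts in the cytoplasm, was listed at 1.2, 1.00 and 0.99 FPKM in the controls and at 0.86, 1.29 and 0.96 FPKM with metformin. The metformin libraries held its highest and its lowest value. Piwil4 lies at chr9:14696230-14740740 and Piwil2 at chr14:70372477-70429383, both on the minus strand. The third PIWI gene, Piwil1, was at 0 in all 6 libraries. So were Mael, a partner of the PIWI proteins, Mov10l1, the helicase that feeds piRNA precursors into the pathway, and Tdrd1, Tdrd6 and Tdrd9, the Tudor proteins that dock PIWI proteins. The floors of these genes were at most 0.140 FPKM.

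Of the 11 genes of meiosis and germ cell structure, 5 were at 0 in all 6 libraries. They were Stra8, Sycp2, a protein of the chromosome axis, Spo11, which makes the DNA breaks of meiosis, Hormad1, which monitors the axis, and Tex101, a surface protein of germ cells. For Hormad1 a near-identical copy covered 80.3% of the transcript. Dmc1, the recombinase of meiosis, had 3 fragments, Sycp3, the other main axis protein, had 1, and Meioc, which sustains meiotic prophase, had 10. Sycp1, the transverse filament of the synaptonemal complex, was listed at 1.51, 1.30 and 1.49 FPKM in the controls and at 1.54, 1.41 and 1.47 FPKM with metformin. The gene lies at chr3:102818499-102936100 on the minus strand. Its libraries differed by less than counting alone gives, with a coefficient of variation of 5.98% against 12.0%. Its partners in the complex, Sycp2 and Sycp3, were at 0 and at 1 fragment.

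Tex14, which keeps the bridges between dividing germ cells open, was the highest of the 45 genes. It was listed at 2.81, 2.86 and 3.01 FPKM in the controls and at 2.83, 3.07 and 3.25 FPKM with metformin. The gene lies at chr11:87405065-87555823 on the plus strand. Even so, 7857 protein-coding genes had a higher mean than Tex14, and the median over protein-coding genes above their floor was 7.58 FPKM. Tex14 lies 110 bp from Rad51c on the opposite strand, a DNA repair gene that averaged 3.50 FPKM. Rec8, the cohesin subunit of meiosis, was listed at 0.38, 0.44 and 0.24 FPKM in the controls and at 0.46, 0.32 and 0.42 FPKM with metformin. It lies at chr14:55618037-55625395 on the plus strand, 4 bp from Ipo4, an import receptor gene on the opposite strand that averaged 17.9 FPKM. The part of reads from these neighbours in the values of Tex14, Rec8, Gdf9 and Dnd1 was not tested.

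In the order of the means over 6 libraries, Tex14 at 2.97 FPKM stood above Piwil4 at 1.71 FPKM, and the ranges of these genes did not overlap. The ranges of Piwil4 and Sycp1, at 1.45 FPKM, overlapped, as did those of Zbtb16 and Piwil2, at 1.08 and 1.05 FPKM. In every library these 5 genes were higher than Dnd1, Rec8, Gdf9 and Ret, whereas Ifitm3 in control 1 reached the range of the upper 5. The levels describe bulk RNA, in which fewer cells of a type and less RNA per cell cannot be told apart.

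**Figure D3:**
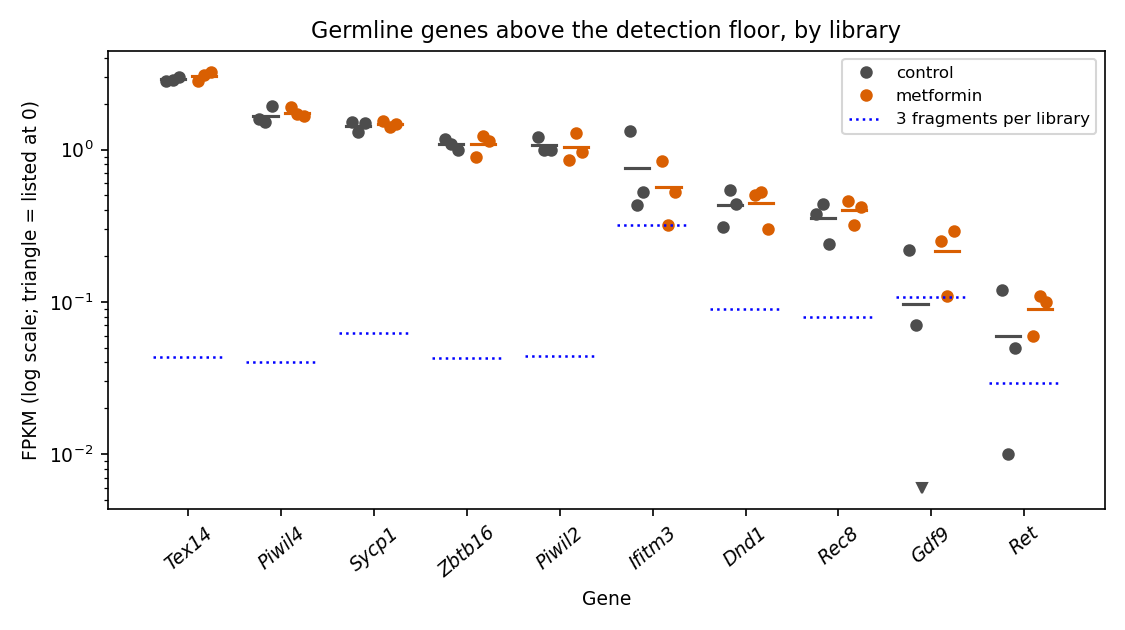
FPKM (log scale) of the 10 genes above their detection floor in each control and metformin library (n = 3 each), with bars for group means, dotted lines for the floor of each gene at the mean depth and a triangle for a library listed at 0. Points of the groups overlap for all 10 genes, and only Tex14 reaches 2.8 FPKM or more.

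The wider gene lists of the same programmes gave a mixed picture. Of 103 further genes found, 38 were at 0 in all 6 libraries, 30 were above their floor and 20 had a mean of at least 1 FPKM. Of protein-coding genes with a known exon length, 29.7% were at 0 and 53.8% were above their floor. Of 20 wider germline stem cell genes, Kit, a receptor of migrating germ cells and also of mast cells and blood progenitors, averaged 118 FPKM. Etv5, a GDNF-responsive transcription factor of spermatogonia, averaged 20.1 FPKM, and Itga6, an integrin, 17.8 FPKM. In the same list 8 genes were at 0, among them Bcl6b, Lhx1 and Pax7. Of 18 wider piRNA genes, 6 were above their floor. Gpat2, which acts in the making of piRNAs, averaged 27.9 FPKM. The Tudor proteins Tdrkh and Tdrd7 averaged 8.47 and 3.17 FPKM, and Mybl1, a transcription factor of piRNA precursors, 3.64 FPKM. Asz1, Gtsf1, Rnf17 and Ctcfl were at 0. Of 29 wider meiosis genes, 13 were above their floor and 7 were at 0, shares closer to those of all protein-coding genes than the shares of the 45 genes were. The synaptonemal complex gene Syce2 averaged 31.6 FPKM, and Mnd1 and Psmc3ip, the partner proteins that assist Dmc1, averaged 12.2 and 12.1 FPKM. Beside these, Syce1 and Syce3 were at 0. Of 16 wider oocyte genes, 10 were at 0 and 1, the histone chaperone Npm2, was above its floor, at 1.05 FPKM. Of 20 wider pluripotency genes, 4 were above their floor and 9 were at 0. Myc and Trp53, which most dividing cells use, averaged 181 and 48.2 FPKM and Zfp42, Dppa2, Dppa4, Dppa5a, Tdgf1 and Fgf4 were at 0. The genes at 0 named in this paragraph, Tdrkh, Tdrd7, Mybl1 and Npm2 were chosen after their values were seen.

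Markers of other cell types were read in the same libraries. These lists, too, were drawn up with earlier results of these data known, so their levels are given as a description only. Of 18 blood cell markers, 18 had a mean of at least 10 FPKM, with a median of 39.9 FPKM. Over the whole table, 5096 of 55401 genes had a mean of at least 10 FPKM. Their summed level was 925 to 934 FPKM in the controls and 939 to 957 FPKM with metformin, against 9.32 to 10.9 and 10.1 to 10.3 FPKM for the 45 germline genes. The highest were Coro1a, Lcp1 and Plek, which organise the actin skeleton or signalling of white blood cells, and Cd53, their tetraspanin, at 139, 96.0, 90.4 and 94.9 FPKM. Of 12 mast cell markers, 6 were above their floor, with summed levels of 594 to 633 FPKM in the controls and 569 to 585 FPKM with metformin. Cpa3, a protease of mast cell granules, averaged 352 FPKM, Srgn, a granule proteoglycan, 76.3 FPKM and Il1rl1, the receptor of interleukin-33, 32.8 FPKM. The defining markers Fcer1a, Tpsab1, Tpsb2 and Mcpt4 were at 0. Kit is in the mast cell list and in the germline stem cell list.

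Of 16 granulosa and other ovarian somatic markers, 8 were at 0, Foxl2, Fshr and Cyp19a1 among them, and 4 were above their floor. Their summed level, 55.7 to 57.3 FPKM in the controls and 56.8 to 59.6 FPKM with metformin, was nearly all Cyp11a1, the enzyme that starts steroid synthesis, at 54.4 FPKM. Of 16 feeder fibroblast markers, 8 were above their floor and 0 reached a mean of 1 FPKM. Their summed level was 1.17 to 1.42 FPKM in the controls and 1.00 to 1.09 FPKM with metformin, the highest being the matrix gene Fn1 at 0.275 FPKM. Of 12 genes that every cell uses, 12 were above their floor, with a median of 110 FPKM. The part of these other cell types in the low levels of the germline genes was not tested.

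**Figure D4:**
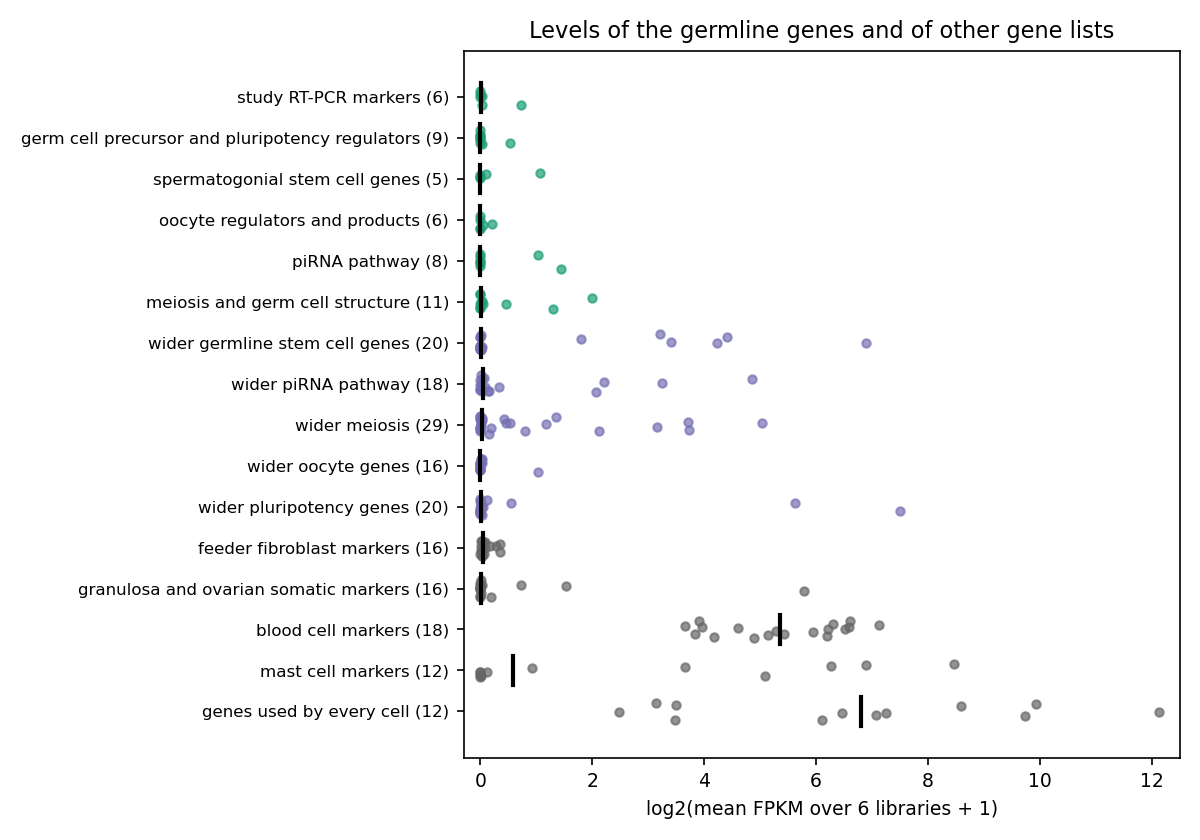
Mean level over 6 libraries, as log2(FPKM + 1), of each gene (points) in the 6 roles of the 45 germline genes, the 5 wider lists of the same programmes and 5 lists of other cells, with the number of genes in brackets and a black bar for the list median. The medians of the germline roles lie at or near 0, whereas that of the 18 blood cell markers is 39.9 FPKM. All lists were drawn up with earlier results of these data known.

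The comparison of metformin with control asked whether the treatment moved the germline genes above their floor. Of the 10 genes above their floor, 5 had a mean of at least 1 FPKM and were tested in the fit across all 10661 genes of that level, with limma on log2(FPKM + 1) and Benjamini-Hochberg adjustment. Of these 5 genes 0 had an adjusted p under 0.05, where 3 of 10661 genes (0.0281%) were called in all. At an unadjusted p under 0.05 the count was also 0 of 5, against 10.8% of all tested genes. The libraries of the groups did not overlap for 0 of the 5 genes, against 17.0% of all tested genes.

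Tex14 averaged 2.89 ± 0.104 FPKM in the controls and 3.05 ± 0.211 FPKM with metformin (SD, n = 3 each). Its log2 fold change was 0.06 (SE 0.06, 95% interval -0.09 to 0.20), with an adjusted p of 0.779 in limma. Piwil4 averaged 1.67 ± 0.219 and 1.75 ± 0.125 FPKM, a log2 fold change of 0.04 with an interval of -0.16 to 0.25. Sycp1 averaged 1.43 ± 0.116 and 1.47 ± 0.0651 FPKM, a log2 fold change of 0.02 with an interval of -0.16 to 0.21. The intervals of Tex14, Piwil4 and Sycp1 all included 0. Zbtb16 averaged 1.08 ± 0.0850 and 1.09 ± 0.166 FPKM, with an interval of -0.23 to 0.23 on the log2 scale. Piwil2 averaged 1.06 ± 0.118 and 1.04 ± 0.225 FPKM, with an interval of -0.28 to 0.23. The adjusted p-values of these last 4 genes in limma were 0.888 to 0.9997. The log2(FPKM + 1) scale understates changes of genes at such levels.

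**Figure D5:**
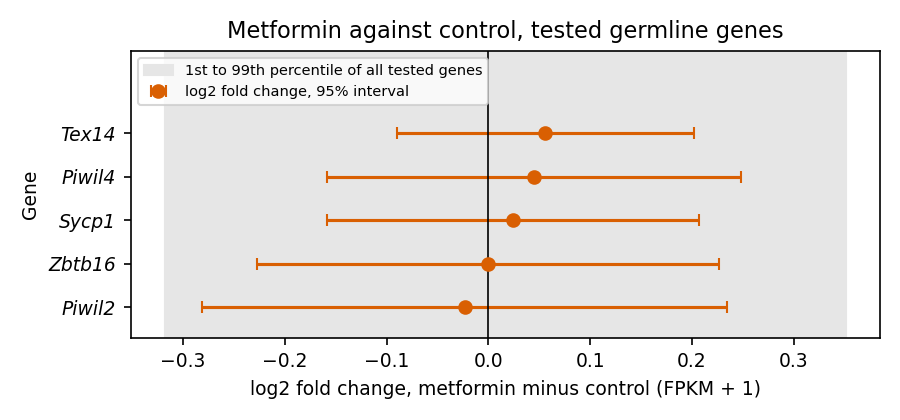
Log2 fold change of FPKM + 1, metformin minus control (n = 3 each), of the 5 tested germline genes with 95% intervals from limma, over a grey band for the 1st to 99th percentile of all 10661 tested genes, -0.32 to 0.35. All 5 intervals include 0 and lie within the band. The band is of point estimates of genes not matched in level to these 5, and the scale understates changes of genes at such levels.

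The other 5 genes above their floor were compared singly, by an exact two-sided permutation test of the mean FPKM. With 20 splits of 3 libraries against 3, the smallest p that the test can give is 0.1, so none could pass 0.05. Gdf9 averaged 0.0967 ± 0.112 FPKM in the controls and 0.217 ± 0.0945 FPKM with metformin (SD, n = 3 each; exact permutation p = 0.2). Ret averaged 0.0600 ± 0.0557 and 0.0900 ± 0.0265 FPKM (exact permutation p = 0.6, n = 3 each). Control 1 stood among the metformin libraries for Gdf9 and above them for Ret. Without it the groups did not overlap for Gdf9 and Ret, 2 of the 5 genes, against 27.1% of the 10661 tested genes. Without metformin 2 they did not overlap for Gdf9, 1 of the 5 genes, against 26.9%. The count was 0 of the 5 genes without control 2, control 3, metformin 1 or metformin 3, against 26.8%, 27.2%, 27.3% and 27.7% of the tested genes. All the tested genes averaged 1 FPKM or more, unlike these 5 genes, so these shares are not matched to them in level. Ifitm3 averaged 0.760 ± 0.488 and 0.563 ± 0.262 FPKM (exact permutation p = 0.7, n = 3 each). Dnd1 averaged 0.430 ± 0.115 and 0.443 ± 0.125 FPKM, with an exact permutation p of 1. Rec8 averaged 0.353 ± 0.103 and 0.40 ± 0.0721 FPKM (exact permutation p = 0.6, n = 3 each). Of the 35 genes not above their floor, 28 were listed at 0 in every library of both groups and so showed no rise above it. Changes of the 35 genes within their floor were not detectable at this depth.

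In the wider lists of the same programmes, 20 genes were tested in the same fit and 0 passed an adjusted p of 0.05 in either direction. At an unadjusted p under 0.05, Etv5, the retinoic acid receptor Rarg, the recombination site factor Prdm9 and Myc were higher with metformin and Gpat2 was lower, 5 of 20 genes against 10.8% of all tested genes. The adjusted p-values of these 5 genes in limma were 0.283 to 0.406. Etv5 was listed at 19.62, 18.97 and 18.63 FPKM in the controls and at 21.20, 20.76 and 21.52 FPKM with metformin, without overlap (log2 fold change 0.14, SE 0.03, adjusted p = 0.320 in limma). Prdm9 was listed at 1.06, 1.04 and 1.18 FPKM in the controls and at 1.44, 1.53 and 1.35 FPKM with metformin, also without overlap. Its log2 fold change was 0.22 (SE 0.08, adjusted p = 0.406 in limma). In these lists Myc, Rarg, Gpat2, Taf4b and Tdrd7 did not overlap between the groups either. Over all tested genes this held for 17.0%. Etv5 and Prdm9 thus did not stand apart in this, and the choice to show them was made with the values known. Of the tested blood cell markers 3 of 18 had an unadjusted p under 0.05, all higher with metformin, where 6.03% of all tested genes were higher at that p. Of the mast cell markers 1 of 5 was lower at an unadjusted p under 0.05, where 4.81% of all tested genes were. With so few genes, these counts are given as a description.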

How the data were processed

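Total RNA of cultured cells was sequenced as 6 stranded mRNA libraries per the labels. The authors deposited FPKM values, 1 column per library, normalized by them for gene length and depth. The submitters' processing notes name HISAT2, DESeq2 and mm9 without saying what each was used for, whereas gene positions in the table are those of GRCm38. Symbols were found for 32589 of 55401 genes, 2 of the 45 members by an older symbol. The table had 0 columns of samples outside the series. Exon lengths and transcripts came from GENCODE M1 (NCBIM37), and 27 of the 45 members had a gene span of the same length there and in the table. Fragments are therefore estimates, from FPKM, exon length and a depth fitted to genes with a single exon under 400 bp, whose values (328 to 355 per library) were all within 0.1 of a whole fragment. Intervals and floors cover counting error only. Between libraries, at most 1.48% of values were identical.

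The members and all lists were chosen with earlier results of these data known. Named genes were the members and, from the other lists, up to 4 genes that averaged 10 FPKM or more, the Ifitm family and genes beside a member. Other genes are named where singled out after their values were seen. Genes that averaged 1 FPKM or more were tested as log2(FPKM + 1) with limma 3.58.1 (R 4.3.3), lmFit and eBayes with a trend, two-sided, without a replicate block. FPKM hold no counts, so no count test was run. Code was tested on simulated data. Copies were sought with BLAST 2.17.0. Python 3.11.15, scipy 1.17.1 and matplotlib 3.10.9 were used. Alternatives were other floors, pseudocounts, filters and scalings, a spread without the trend, a replicate block and each library left out.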

Additional observations from a re-analysis of the deposited data

How the results depend on the processing

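The count of germline genes above the floor, 10, became 8 with a flat floor of 0.2 FPKM or with the floor passed in every library, 5 at a mean of at least 1 FPKM, 17 for any value above 0 and 14 for more than 3 fragments summed over the libraries (chosen after seeing the data), and was 10 without any 1 library. The 3 genes called in all became 7 of 22809 with no filter, 4 of them higher, and 4 at a mean of at least 0.1 FPKM, 2 at 10 FPKM and 3 to 4 without 1 library. No germline gene was called under any of 15 alternatives, with a lowest adjusted p of 0.677 in limma. The count of the 5 lower genes without overlap was 0, and 0 to 2 without 1 library (2 without control 1, 1 without metformin 2). Of the 10661 tested genes, all of higher mean level, 26.8% to 27.7% did not overlap without 1 library. Of 70 fold changes of the 5 tested genes, 64 kept their direction and 6 turned. Piwil2 turned to 0.02 without control 1, 0.04 without metformin 1 and 0.0019 without metformin 3. Zbtb16 turned to 0.03 without control 1 and 0.07 without metformin 1, and Sycp1 to -0.02 without control 2. The cause was not tested. Under the alternatives, Tex14 ranged from 0.02 to 0.10, Piwil4 from 0.0018 to 0.11, Sycp1 from -0.016 to 0.047, Piwil2 from -0.11 to 0.040 and Zbtb16 from -0.046 to 0.066, all on the log2 scale. Correlations of the libraries' deviations from their group means were -0.03, 0.02 and 0.05 for the same replicate number. For different numbers they were -0.05 to 0.03. With 3 libraries a group, this check cannot tell whether the numbers pair cultures. The replicate block gave 2 called genes in all, 0 germline genes, and an adjusted p of 0.779 for Tex14 in limma.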

Other observations

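The labels call the cells female. Xist, the long RNA that coats the silenced X chromosome of cells with a pair of X chromosomes, was listed at 0 in all 6 libraries, with a floor of 0.0125 FPKM. The Y-linked genes Ddx3y, Eif2s3y, Uty and Kdm5d were also listed at 0 in all 6 libraries. These genes were chosen after their values were seen. Among the genes that every cell uses, Eef1a1, Actb, Rplp0 and B2m averaged 4487, 979, 852 and 384 FPKM, whereas Gapdh averaged 10.1 FPKM and Ppia 7.83 FPKM. Near-identical copies elsewhere in the genome covered 88.6% of the Gapdh transcript, 63.5% of the Ppia transcript and 0% of the Actb transcript. Gapdh and Ppia were picked once their values were known. The 3 germline genes with such copies over most of their transcript, Dppa3, Hormad1 and Nanog, were all listed at 0. Of all 45 germline genes, 28 (62.2%) were listed at 0. Such copies also covered 59.4% of the Ifitm1 transcript, and Ifitm1 averaged 501 FPKM. The part of copies in these values was not tested.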
